A study of Mus musculus with 1187 samples.

Results

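The 10 transcripts described here mark the tip cells of vascular sprouts besides Angpt2 and were followed through single brain endothelial cells: Esm1, Mcam, Cd34, Trp53i11, Kcne3, Plaur, Fscn1, Chst1, Meox1 and Cxcr4. They are 10 of the 46517 gene rows of the count table. The members were chosen by name, with earlier results from these cells known, for their levels by plate, their occurrence in the same cell and their relation to Angpt2, so those values are given as a description and without a test. The table held 1187 cells from adult C57BL/6 mice, labelled Pdgfb ret/+ (590 cells, the control) or Pdgfb ret/ret (597 cells), at 3 months of age per the series' design text. The ret allele removes the stretch that keeps PDGF-B at the cell surface, and homozygous brains are short of pericytes, the mural cells of capillaries. Mice of both genotypes carried Cldn5-GFP and Cspg4-DsRed, 1 reporter for endothelium and 1 for pericytes and oligodendrocyte precursors, and GFP-positive, DsRed-negative cells were sorted singly for Smart-seq2, which makes a full-length cDNA library in each well without molecular identifiers. No label names an animal, and the columns are named by plate and well while the labels number the cells, so no cell was given a genotype here and ret/ret was not compared with ret/+. The cells of plates 521 and 522 add up to 590 and those of plates 523 and 524 to 597, which are also the counts of cells labelled ret/+ and ret/ret. Equal numbers do not name the genotype of a column and were not used as a map, but a difference between these plates may be one between genotypes. All cells were handled as 1 pooled sample spread over plates 521, 522, 523 and 524; plate, genotype, animal and sort cannot be told apart, and no test across plates or cells was made.

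A sprouting vessel is led by a tip cell, which extends filopodia towards VEGF through its receptor Kdr and, by the ligand Dll4, holds its neighbours back through Notch. Angpt2 is a secreted ligand of the receptor Tek (TIE2) that sprouting endothelium makes and stores, and it loosens the hold of pericytes on the vessel. In the healthy adult brain most endothelial cells do not sprout. Among the members, Cd34 is a sialomucin of the endothelial surface and Mcam (CD146) is an adhesion molecule of the immunoglobulin family that mural cells also carry. Cxcr4 is the receptor of the chemokine Cxcl12 and Plaur is the receptor of urokinase. Esm1 (endocan) is a secreted proteoglycan. Kcne3 is an accessory subunit of potassium channels, Fscn1 bundles the actin of filopodia, Chst1 is a sulfotransferase of carbohydrate chains, Meox1 is a homeobox transcription factor, and Trp53i11 is a p53-inducible membrane protein.

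The 4 plates held 300, 290, 285 and 312 cells and between 98732876 and 108978396 gene-assigned reads each, with 100779 to 584112 reads per cell. Levels are given as CPM, counts summed over cells per 1000000 gene-assigned reads, with exact Poisson 95% intervals. Shares of cells with a read were taken after each cell had been thinned to 100000 reads, with exact Clopper-Pearson 95% intervals. Reads of 1 library are not independent molecules, so these intervals cover counting error only. At that fixed depth the median cell had 4156, 3902.5, 3278 and 3463.5 genes with a read on plates 521 to 524, so plates 521 and 522 held cells with more genes detected. The sorted cells carried endothelial markers at high level on every plate: the 8 genes of that list, Cldn5 among them, summed to between 16799 and 19512 CPM. Marker lists of pericytes, smooth muscle, fibroblasts, microglia, astrocytes, oligodendrocytes, neurons and erythroid cells summed to at most 147.8 CPM on any plate, and 16 cells had at least 3 markers of 1 such type at 100 CPM or more.

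The members differed widely in level. Per kilobase of exon, which allows genes to be compared, Cd34 stood at 160.2 CPM over all cells and Angpt2 at 60.0. Trp53i11 followed at 20.8, Meox1 at 13.7, Plaur at 8.57, Mcam at 4.81, Fscn1 at 4.63, Chst1 at 2.08, Cxcr4 at 1.06, Esm1 at 0.385 and Kcne3 at 0.298 CPM per kilobase. Cd34 was the only member read in most cells, and Esm1 and Kcne3, tip-cell markers of developing vessels, were near the lower end of what these libraries detect. A filter of 5 CPM over all cells was passed by 7 members: Cd34, Trp53i11, Meox1, Plaur, Mcam, Fscn1 and Chst1. Esm1, at 0.807 CPM (0.723 to 0.898), Cxcr4, at 1.91 CPM (1.78 to 2.05), and Kcne3, at 0.530 CPM (0.463 to 0.604), did not pass and are given by their values only.

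On GRCm38 with the GENCODE M21 annotation, Cd34 lies on chromosome 1 from 194938819 to 194961279 (plus strand), Cxcr4 on chromosome 1 from 128588199 to 128592293 (minus), Chst1 on chromosome 2 from 92599707 to 92615250 (plus) and Trp53i11 on chromosome 2 from 93187548 to 93201759 (plus). Fscn1 lies on chromosome 5 from 142960343 to 142973185 (plus), Plaur on chromosome 7 from 24462484 to 24475968 (plus) and Kcne3 on chromosome 7 from 100176502 to 100184869 (plus). Mcam is on chromosome 9 from 44134469 to 44142727 (plus), Meox1 on chromosome 11 from 101877510 to 101894374 (minus) and Esm1 on chromosome 13 from 113209659 to 113218098 (plus). Whether the counting used strand is not stated in any source read here, so reads of a gene and an antisense partner cannot be told apart. Cd34 is the member most touched, since the antisense gene Gm16897 shares 148 exon bases with it, stood at 91.4 CPM and followed Cd34 from cell to cell more closely than any other gene (Pearson's r 0.79 within plates).

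The promoters of 4 members are shown. Trp53i11, Fscn1 and Chst1 were read in the same cells more often than their shares give, as described below. Plaur was read in a similar share of cells on every plate. Plaur and Mcam were also read with other members more often than their shares give. The 4 promoters shown are thus no contrast of genes read together with genes read apart. Each is the 250 bases before the RefSeq start on GRCm38.p6, read 5′ to 3′ along the gene's strand (plus for all 4), with matches to 7 searched motifs in capitals. The regions are chr2:93187298-93187547 for Trp53i11, chr5:142960105-142960354 for Fscn1, chr2:92600867-92601116 for Chst1 and chr7:24462233-24462482 for Plaur. The RefSeq start of Chst1 lies inside the GENCODE gene.
Trp53i11: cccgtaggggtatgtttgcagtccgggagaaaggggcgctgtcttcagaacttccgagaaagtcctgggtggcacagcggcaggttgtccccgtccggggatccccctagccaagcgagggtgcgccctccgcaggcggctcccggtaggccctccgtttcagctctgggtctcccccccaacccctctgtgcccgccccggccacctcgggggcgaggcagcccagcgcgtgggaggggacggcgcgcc
Fscn1: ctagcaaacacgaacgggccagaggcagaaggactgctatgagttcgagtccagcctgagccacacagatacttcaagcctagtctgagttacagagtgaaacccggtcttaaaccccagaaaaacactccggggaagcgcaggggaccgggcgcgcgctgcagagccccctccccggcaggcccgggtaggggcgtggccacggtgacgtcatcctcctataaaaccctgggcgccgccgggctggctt
Chst1: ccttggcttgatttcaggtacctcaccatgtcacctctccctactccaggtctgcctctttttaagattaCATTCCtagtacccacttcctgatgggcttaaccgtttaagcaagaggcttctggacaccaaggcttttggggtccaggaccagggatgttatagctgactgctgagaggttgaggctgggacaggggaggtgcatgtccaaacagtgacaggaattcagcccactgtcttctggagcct
Plaur: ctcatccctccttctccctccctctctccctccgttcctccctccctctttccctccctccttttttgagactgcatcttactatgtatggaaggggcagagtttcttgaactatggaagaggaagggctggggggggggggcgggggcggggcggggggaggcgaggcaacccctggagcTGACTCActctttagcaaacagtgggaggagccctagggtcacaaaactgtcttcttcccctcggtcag
The motifs, searched on both strands, were ACGTG (hypoxia response core, in 16.6% of all 32851 promoter entries), TGTTTAC (forkhead, 3.17%), AACAAT (SOX, 9.42%), TGANTCA (AP-1, 6.75%), GGAATG (TEAD, 12.6%), GTGGGAA (RBPJ, 5.42%) and CCGGAA (ETS, 12.0%). The capitals mark 1 match to the TEAD letters in Chst1 and 1 to the AP-1 letters in Plaur; Trp53i11 and Fscn1 held no match. Of the other members, Kcne3 held 1 match to ACGTG and 1 to TGANTCA in the first of its 2 promoters, while Esm1, Mcam, Cd34 and Cxcr4 held none. Of the 10 members, 9 had an entry; Meox1 had none.

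Cd34 was read in 94.9% of cells (93.5% to 96.1%) and differed little between plates. It stood at 938.7, 1116, 1216 and 1396 CPM on plates 521, 522, 523 and 524, and was read in 94.7%, 93.1%, 94.7% and 97.1% of their cells. Its level was lowest on plate 521 and highest on plate 524, the reverse of the order of most other members.

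Mcam was a gene of few cells. It stood at 30.4, 14.7, 12.1 and 7.08 CPM and was read in 26, 9, 10 and 9 cells (8.67%, 3.10%, 3.51% and 2.88%). Plate 521 was the highest by both measures, and the shares of the other 3 plates were close together. Where Mcam was read it was abundant, with a median of 194.3 CPM in the 54 cells. Mural cells carry Mcam too: of these 54 cells 31.5% had a read of any of 9 pericyte markers (25.5% of the other cells) and 20.4% of any of 6 smooth muscle markers (10.9%), but their summed levels were 28.2 CPM for pericyte markers (74.6 CPM in the other cells) and 16.7 CPM for smooth muscle markers (12.9 CPM).

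The 2 receptors were spread over all plates. Plaur stood at 20.9, 15.6, 28.4 and 24.5 CPM and was read in 11.0%, 9.31%, 12.3% and 9.62% of cells. Its intervals overlapped between all plates, and its highest level was on plate 523. Cxcr4 stood at 2.96, 2.04, 1.3996 and 1.24 CPM and was read in 21, 13, 9 and 6 cells, or 7.00%, 4.48%, 3.16% and 1.92%. Its shares had the same plate order as those of Meox1, at a far lower level, and only 26 of 1187 cells had at least 3 Cxcr4 reads. Microglia and leukocytes are known for Cxcr4; the 10 markers of that list were read in 16.3% of the 49 Cxcr4 cells and in 22.1% of other cells, and summed to 39.1 against 35.0 CPM.

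Esm1 and Kcne3 were nearly missing. Esm1 had 338 reads in the whole table, of which 83.1% came from 3 cells, and was read in 6, 4, 1 and 2 cells of plates 521 to 524 (13 of 1187 cells, 1.10%, interval 0.584% to 1.87%). Its levels of 1.29, 1.89, 0.0486 and 0.0551 CPM therefore rested on very few cells: the highest cell had 433.4 CPM and the second 412.7 CPM. Without each gene's 3 highest cells the log2 ratio of the highest to the lowest plate was 0.35 for Esm1, against 1.46 with them. Kcne3 was read in 4 cells, 1 on plate 521 and 3 on plate 523, at 0.582 and 1.55 CPM. It had 0 reads on plates 522 and 524, where a floor of 3 reads is 0.0304 and 0.0275 CPM and a floor of 3 cells is 1.03% and 0.962% of cells.

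Fscn1, Trp53i11, Chst1 and Meox1 showed the steepest plate differences, and all 4 were highest on plate 521. Fscn1 stood at 29.97, 22.9, 3.18 and 0.0734 CPM and was read in 83, 49, 2 and 1 cells. That is 27.7% of cells on plate 521 (22.7% to 33.1%), 16.9% on plate 522 (12.8% to 21.7%), 0.702% on plate 523 (0.0851% to 2.51%) and 0.321% on plate 524 (0.00811% to 1.77%). The intervals of plates 521 and 522 did not reach those of plates 523 and 524, and the level on plate 523 came almost wholly from 1 cell at 932.8 CPM.

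Trp53i11 stood at 183.2, 105.9, 11.8 and 5.79 CPM and was read in 39.7%, 21.7%, 3.86% and 2.56% of cells. Every interval on plates 521 and 522 lay above those of plates 523 and 524, which rested on 11 and 8 cells. In the cells with a read its median was 283.9, 257.5, 215.7 and 43.1 CPM, so on plates 521 to 523 the share of cells differed far more than the amount per positive cell. Chst1 stood at 14.2, 7.53, 0.272 and 0.193 CPM and was read in 22, 9, 3 and 4 cells. Its share was 7.33% on plate 521 and between 1.05% and 3.10% on the others. Meox1 was lower on each plate than on the one before, with 57.8, 33.6, 26.7 and 4.46 CPM and reads in 23.7%, 13.1%, 7.72% and 2.24% of cells. Unlike Fscn1, it kept a sizeable level on plate 523, where its 22 positive cells had a median of 358.7 CPM.

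**Figure D1:**
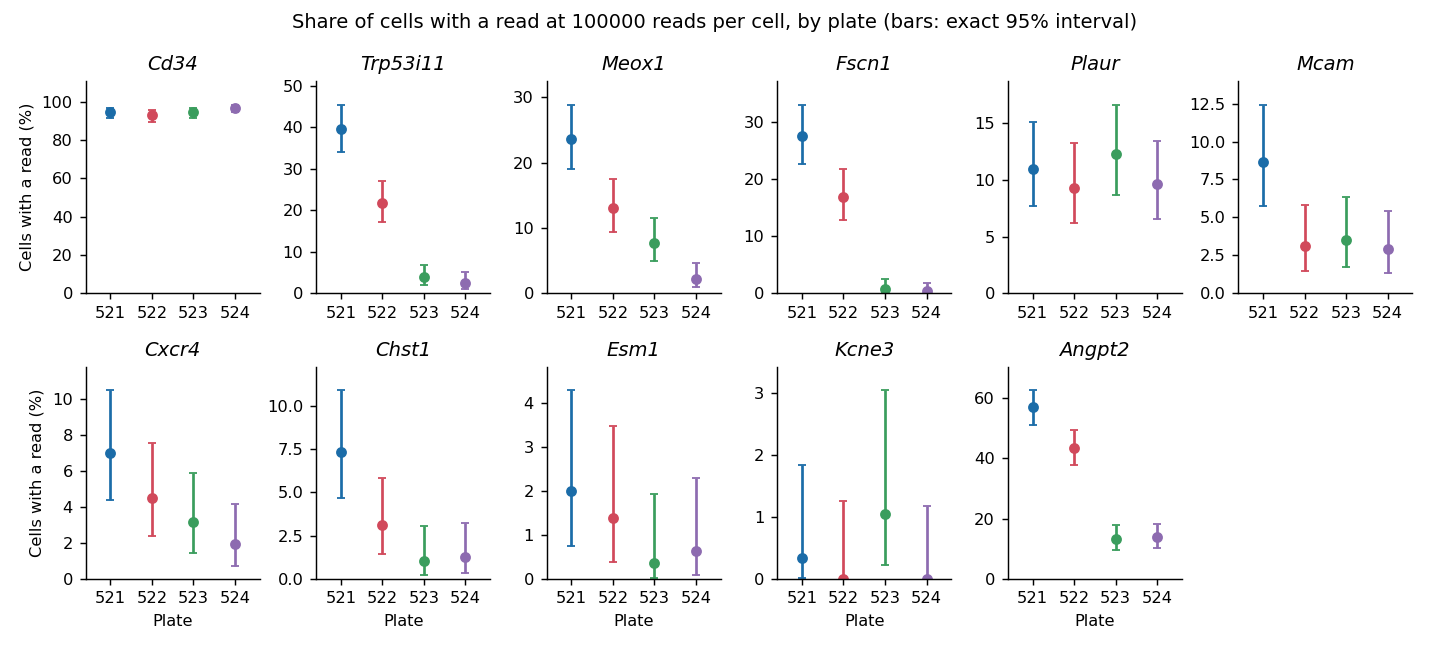
Percent of cells with a read at 100000 reads per cell (vertical axis, scaled for each gene) on each plate (horizontal axis) for the 10 members and Angpt2; points are shares and bars exact 95% intervals. The intervals of Plaur overlapped between all plates and Cd34 lay between 93.1% and 97.1%, while Trp53i11, Fscn1 and Meox1 were most often read on plate 521, as was Angpt2 (57.0%).

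Angpt2 itself had the same plate order by level, with 507.6, 298.9, 48.4 and 29.9 CPM and reads in 57.0%, 43.4%, 13.3% and 13.8% of cells. As the log2 ratio of the highest to the lowest plate, with 1 CPM added to both sides, Fscn1 had 4.85, Trp53i11 4.76, Chst1 3.68, Meox1 3.43, Mcam 1.96, Plaur 0.83 and Cd34 0.57, beside 4.04 for Angpt2. Of the 7 members above the filter, 5 were at least 2-fold apart, all with plate 521 highest and plate 524 lowest. Among all 11461 genes that passed the filter, 20.5% were 2-fold apart, with a median log2 ratio of 0.59. Members such as Chst1 passed the filter through the plates where they were high, so the count is a description. Without plate 521 it was 3, and Mcam was then at 0.96. The count was 5 without the 16 cells that held markers of another type.

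Cells were next split by whether they had an Angpt2 read at the fixed depth (378 cells) or none (809 cells). Over all cells together, Fscn1 was at 37.0 CPM in Angpt2-read cells and 3.56 CPM in Angpt2-free cells, Trp53i11 at 185.3 and 27.8, Meox1 at 67.9 and 13.8, Mcam at 27.7 and 10.9, and Chst1 at 14.8 and 1.41. Of the 7 members, 5 were thus at least 2-fold higher and 0 lower, with log2 ratios of 3.06 for Fscn1, 2.72 for Chst1, 2.69 for Trp53i11, 2.22 for Meox1 and 1.27 for Mcam. Plaur (0.20) and Cd34 (-0.17) were close to level. The median of the 7 was 2.22, beside -0.01 over all genes tested, of which 1.72% were 2-fold higher and 2.73% lower. Chst1 and Fscn1, under 5 CPM in Angpt2-free cells, passed the filter through the Angpt2-read cells, so the count and the median are a description. Below the filter, Esm1 had 1.72, Cxcr4 1.27 and Kcne3 0.62. The value of Esm1 rests on its 3 highest cells, without which it was 0.32. Markers of other types differed between the 2 sets of cells as well. The microglia and leukocyte list summed to 51.3 CPM in Angpt2-read and 28.0 CPM in Angpt2-free cells, the astrocyte list to 64.9 and 35.0 CPM (any marker in 25.4% and 15.8% of cells), and the pericyte list to 32.5 and 90.4 CPM. Without the 16 cells that held markers of another type, again 5 members were 2-fold higher.

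These pooled ratios mix cells of plates that differ in both Angpt2 and the members, and the picture within plates was not uniform. On plate 521, 5 of the 7 members were at least 2-fold higher in Angpt2-read cells (4.15% of all genes tested) and on plate 522 again 5 (3.94%). On plate 523, with 38 Angpt2-read cells, 1 was higher (6.9% of genes), and on plate 524, with 43 such cells, 0 were higher (6.28% of genes). On these plates 1 and 3 members were lower, counts for which the share over all genes was not taken. The 3 on plate 524 rest on few cells: 0 Angpt2-read cells had Trp53i11, 0 had Meox1 and 1 had Mcam. The mean of the 4 within-plate log2 ratios passed 2-fold for 1 of the 7, Fscn1, at 2.00, and their median was then 0.43.

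Fscn1 had log2 ratios of 2.03, 2.17, 3.93 and -0.12 on plates 521 to 524, the third resting on the 1 cell named above and the last on 0 reads in Angpt2-read cells. Trp53i11 stood at 258.5 against 90.6 CPM on plate 521 and 200.7 against 32.5 CPM on plate 522. On plates 523 and 524 it had 1.11 against 13.4 CPM and 0.291 against 6.59 CPM. These last values rest on 11 and 8 Trp53i11 cells, of which 1 and 0 had an Angpt2 read, too few to give a direction. Meox1 had 91.4 against 16.5 CPM, 68.0 against 6.99 CPM and 32.6 against 25.8 CPM on plates 521 to 523, and on plate 524 it had 0 reads in Angpt2-read cells and 5.10 CPM in the others. Its link to Angpt2 reads was thus strongest on plate 522, and its ratio on plate 523 was small (log2 0.33). Chst1 was at 23.95 against 2.29 CPM on plate 521 and 11.5 against 4.44 CPM on plate 522, with too few reads elsewhere to compare. Mcam had log2 ratios of 1.30, 1.11, 0.15 and -3.08, the last from 9 Mcam cells of which 1 had an Angpt2 read.

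Plaur had small ratios of varying sign (0.57, 0.75, -0.44 and 0.85) and Cd34 was near 0 on every plate (-0.15, 0.03, 0.06 and 0.12). Cxcr4, although below the filter, was the one member with a log2 ratio near 1 or above on all 4 plates. The values were 1.18, 1.00, 1.55 and 1.26, with 1 CPM added to both sides. Its levels were 4.28 against 1.34 CPM, 3.23 against 1.11, 4.598 against 0.917 and 3.56 against 0.903 CPM. The added 1 CPM is close to its level in Angpt2-free cells, which makes these log2 ratios smaller. They rest on 27 Cxcr4 cells with Angpt2 and 22 without. On plates 523 and 524 only 2 Cxcr4 cells each had an Angpt2 read, so the ratios of these plates rest on very few cells. Angpt2-read cells had more genes detected than the others on plates 521 (medians 4278 and 4084) and 522 (4045.5 and 3756) and about as many on plates 523 (3334 and 3266) and 524 (3467 and 3460), and the part of this in the ratios was not tested.

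**Figure D2:**
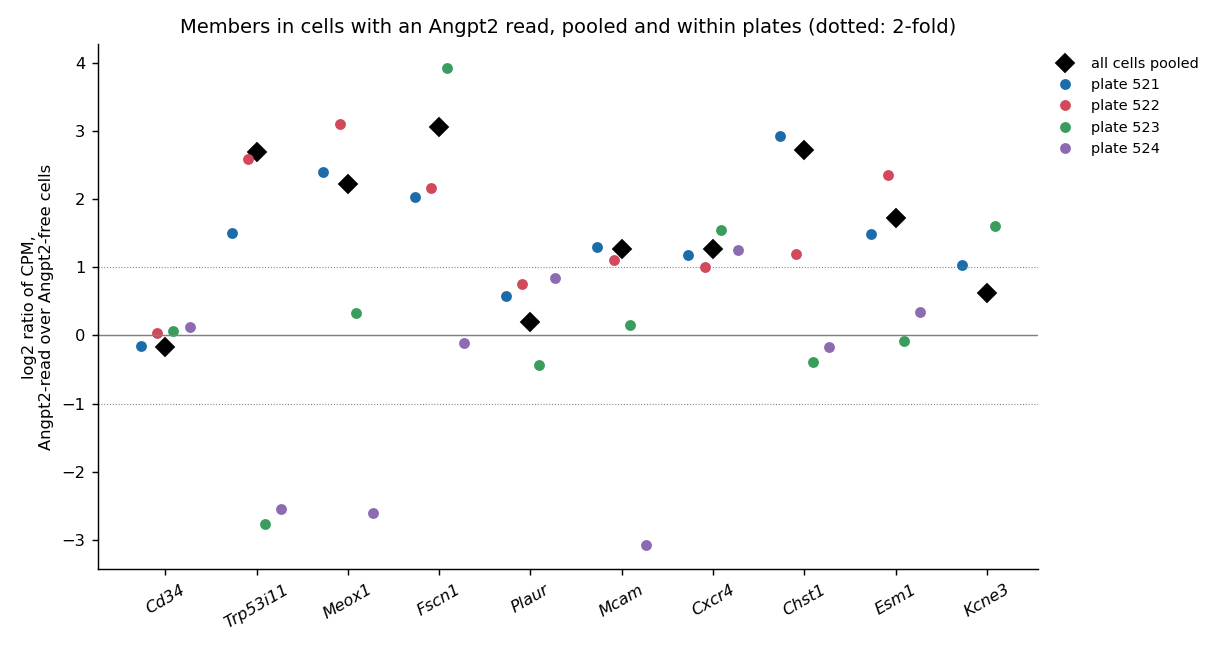
Log2 ratio of CPM in cells with an Angpt2 read over cells without one (vertical axis) for each member, as diamonds for all cells pooled and circles within each plate; plates without a read of the gene are left out. Trp53i11, Meox1 and Mcam lie above 1 on plates 521 and 522. Their values below -2 on plate 524 rest on 8, 7 and 9 cells with the gene. Cxcr4 lies between 1.00 and 1.55 on every plate, with 2 cells holding both genes on each of plates 523 and 524.

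The same relation was counted in cells, as the number with reads of both genes beside the number given by the product of their shares within each plate. Meox1 and Angpt2 were read together in 94 cells beside 60.9 from the product (ratio 1.54), and Fscn1 and Angpt2 in 102 beside 69.0 (1.48). Chst1 had 25 beside 17.4 (1.44), Cxcr4 27 beside 19.6 (1.37) and Trp53i11 127 beside 97.8 (1.30). On plate 521 Cxcr4 had 13 beside 11.97 (1.09), and on plate 522 it had 10 beside 5.65 (1.77). Plaur (1.12), Mcam (1.08) and Cd34 (1.00) were near 1. Mcam differed from the other members that were highest on plate 521: its level was 2-fold higher in Angpt2-read cells on plates 521 and 522, but the count of shared cells was about that of the product. The level rests on few cells: without its 3 highest cells the pooled log2 ratio of Mcam was 0.25 in place of 1.27, and it was 0.92 without the 5% of cells with most genes and 0.63 without plate 521. On plate 522, 75.6% of Mcam reads came from 3 cells. Esm1 was read with Angpt2 in 8 of its 13 cells beside 5.57 from the product (1.44), a difference of under 3 cells, and Kcne3 in 3 of its 4 cells.

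Cells with more genes detected have more chances for both reads, so the product was also taken within plates and within 3 equal classes of the number of genes detected. The ratios were then 1.51 for Meox1, 1.395 for Fscn1, 1.39 for Esm1, 1.38 for Chst1, 1.34 for Cxcr4 and 1.25 for Trp53i11. On plate 521, 90.9% of Chst1 cells (20 of 22, interval 70.8% to 98.9%), 80.3% of Meox1 cells (69.1% to 88.8%) and 77.1% of Fscn1 cells (66.6% to 85.6%) had an Angpt2 read, beside 57.0% of all cells there. On plate 522, 86.8% of Meox1 cells (71.9% to 95.6%) and 75.5% of Fscn1 cells (61.1% to 86.7%) did, beside 43.4% of all. On plate 524, by contrast, 0 of 8 Trp53i11 cells and 0 of 7 Meox1 cells had one, where the product gives 1.10 and 0.965 cells.

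On plates 521 and 522, reads of Trp53i11, Fscn1 and Meox1 were more common the more Angpt2 a cell held. On plate 521, Trp53i11 was read in 27.9% of cells with no Angpt2 read, in 34.9% of those at or below the plate's median of 653.5 CPM among Angpt2-read cells, and in 62.4% above it. Fscn1 had 14.7%, 27.9% and 47.1% in the same steps, Meox1 10.9%, 24.4% and 42.4%, and Chst1 1.55%, 6.98% and 16.5%. On plate 522, where the median was 475.8 CPM, Trp53i11 had 12.2%, 28.6% and 39.7%, Fscn1 7.32%, 19.0% and 39.7%, and Meox1 3.05%, 19.0% and 33.3%. Cd34 showed no such order, with 96.1%, 91.9% and 95.3% on plate 521 and 93.9%, 98.4% and 85.7% on plate 522. Mcam had 6.20%, 5.81% and 15.3% on plate 521, and Chst1 on plate 522 was not in order either, at 3.05%, 0% and 6.35%. On plates 523 and 524 each step above none held 19 to 22 cells. Trp53i11 had 4.05%, 5.26% and 0% on plate 523 and 2.97%, 0% and 0% on plate 524, and Meox1 had 7.29%, 5.26% and 15.8% and then 2.60%, 0% and 0%, so no common order was seen there.

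The members were also read with each other. Of their 45 pairs, 25 had a product of shares of at least 5 cells and so a ratio. Among the 8 of these pairs that held Cd34 the ratios lay between 0.976 and 1.03, as they must for a gene read in nearly every cell. Of the 17 others, 13 reached 1.5 and all 17 exceeded 1, with a median of 2.00 and a range of 1.20 to 2.88. For comparison, 9.03% of all pairs among 3895 genes read in a similar share of cells (3.20% to 16.9%) reached 1.5, and their median ratio was 1.11. Within plates and classes of genes detected the median over the 17 pairs was 1.87 and 13 reached 1.5.

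Fscn1 and Chst1 had the highest ratio, with 22 cells holding both beside 7.64 from the product (2.88): 18 beside 6.09 on plate 521 and 4 beside 1.52 on plate 522. Mcam and Meox1 followed (22 beside 8.31, 2.65), then Chst1 and Meox1 (17 beside 6.71, 2.53), Mcam and Fscn1 (21 beside 8.81, 2.38) and Fscn1 and Meox1 (56 beside 26.2, 2.13). Among pairs without Cd34, the largest number of shared cells was that of Trp53i11 and Fscn1, the first 2 promoters printed above, with 75 beside 43.7 (1.72). Mcam and Chst1 were read together in 14 cells beside 2.41, too small a product for a ratio under the limit used.

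Plaur, whose share of cells was similar on all plates and whose ratio with Angpt2 was near 1, was still read more often with other members: 28 cells with Fscn1 beside 14.0 (2.00), 29 with Meox1 beside 14.7 (1.97), 12 with Mcam beside 5.79 (2.07) and 11 with Cxcr4 beside 5.20 (2.11). Its pair with Trp53i11 was lower, at 28 beside 21.1 (1.33). Pericyte markers were read in 35.2% of Plaur cells and 24.7% of other cells, and microglia and leukocyte markers in 29.6% and 20.9%, with sums of 48.7 against 75.3 CPM and 41.0 against 34.5 CPM. Without the 16 cells that held markers of another type, 14 pairs of members reached 1.5. Without plate 521 only 13 pairs had a ratio, of which 5 reached 1.5.

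**Figure D3:**
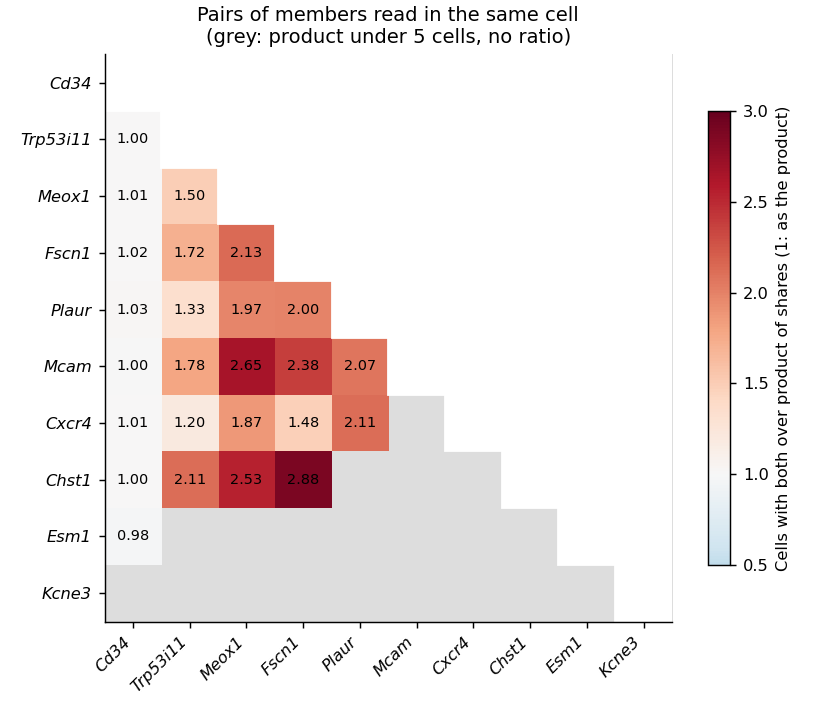
Number of cells with reads of both members over the number from the product of their shares within plates, for each pair (rows and columns are members; colour and printed value give the ratio). All pairs with Cd34 lie near 1, and the pair of Fscn1 and Chst1 is highest at 2.88; grey squares have a product under 5 cells.

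As a measure of likeness over cells, each member's log2 level at the fixed depth was correlated with that of the 10021 genes that had a read in no fewer than 10% of cells, after the plate mean had been removed. Mcam, Chst1, Cxcr4, Esm1 and Kcne3 were read in fewer cells and are not among these genes, so their correlations with the other members are given apart. The values describe 1187 cells that share plates and depth, and carry no test. Among the 10021 genes, those most like Fscn1 were Apln (Pearson's r 0.39), the ligand of the apelin receptor, then Trp53i11 (0.36) and Meox1 (0.31), with Angpt2 at rank 4 (0.30). Those most like Trp53i11 were Fscn1 (0.36), Apln (0.33) and Fxyd6 (0.26), a regulator of the sodium pump, again with Angpt2 at rank 4 (0.24). Chst1 was most like Fscn1 (0.32), Trp53i11 (0.27) and Fxyd6 (0.21). Meox1 was most like Fscn1 (0.31), Angpt2 (0.27) and the basement membrane linker Nid1 (0.24).

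The remaining members had weaker or different neighbours among the 10021 genes. Mcam was most like the protease Htra3 (0.23), Fscn1 (0.23) and Dcbld1 (0.23), while Angpt2 stood at rank 1320 for it (0.05). Plaur was most like Bcl6b (0.19), Ergic1 (0.15) and Nes (0.15). Cd34, after its antisense partner, was most like the transcription factor Ets1 and the ligand Kitl (both 0.20). For the 3 members below the filter the highest values among these genes were low: Esm1 led with Dcbld1 (0.16), Kcne3 with Gm10699 (0.17) and Cxcr4 with Usp31 (0.15), from 13, 4 and 49 cells. Chst1, read in only 38 cells, had higher values, as given above. Conversely, the genes most like Angpt2 were Apln (0.34), Fscn1 (0.30) and Ctgf (0.29), the second a member. Against the members outside the 10021 genes, some correlations were higher than those just given. Mcam and Chst1 had r 0.37, the highest value of either gene with any gene compared. Chst1 had 0.32 with Fscn1 and 0.27 with Trp53i11, above Meox1 in the first case and above Fxyd6 in the second. Cxcr4 had 0.23 with Mcam and 0.19 with Chst1, both above its value with Usp31.

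Counted per cell, reads of several members were found in a small set of cells. Reads of 4 or more of the 10 members were found in 68 cells: 46 on plate 521 (15.3%, interval 11.4% to 19.9%), 21 on plate 522 (7.24%, 4.54% to 10.9%), 1 on plate 523 and 0 on plate 524, where the floor of 3 cells is 0.962%. The most members in 1 cell was 8, reached on plates 521 and 522. Of the 68 cells, 100% had Cd34, 89.7% Fscn1, 83.8% Trp53i11 and 80.9% Meox1. Plaur was read in 41.2% of them, Mcam in 35.3%, Chst1 in 30.9%, Cxcr4 in 20.6%, Esm1 in 4.41% and Kcne3 in 1.47%. Fscn1, Trp53i11 and Meox1 with the ever-present Cd34 were thus the members most often read in these cells. They were also the most widely read members on plates 521 and 522. The number of such cells that the shares alone give was not taken. At the other end, 61.6% of all cells had no member other than Cd34: 35.0%, 56.6%, 72.6% and 81.7% on plates 521 to 524.

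The share of cells with an Angpt2 read was higher the more members were read. It was 17.1% with 0 members (35 cells), 22.0% with 1 (713 cells), 37.6% with 2 (274 cells), 57.7% with 3 (97 cells) and 82.4% with 4 or more (68 cells, interval 71.2% to 90.5%). Within plate 521 the steps from 1 member upwards were 43.9%, 54.5%, 70.5% and 82.6%, and within plate 522 they were 30.6%, 50.0%, 67.9% and 85.7%. With 0 members an Angpt2 read was found in 1 of 4 cells on plate 521 and in 5 of 11 on plate 522. On plate 523 they were 13.5% with 1 member, 10.3% with 2 and 33.3% with 3 (5 of 15 cells), and on plate 524 they were 13.8%, 17.0% and 10.0% (1 of 10 cells). From 1 member upwards the order thus held on plates 521 and 522, and on the other 2 plates the intervals overlapped throughout. The median number of genes detected was higher with more members as well, from 3048 with none to 4642.5 with 4 or more, and its part was not tested. Without the 5% of cells with most genes, the share with 4 or more members was 81.8%.

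**Figure D4:**
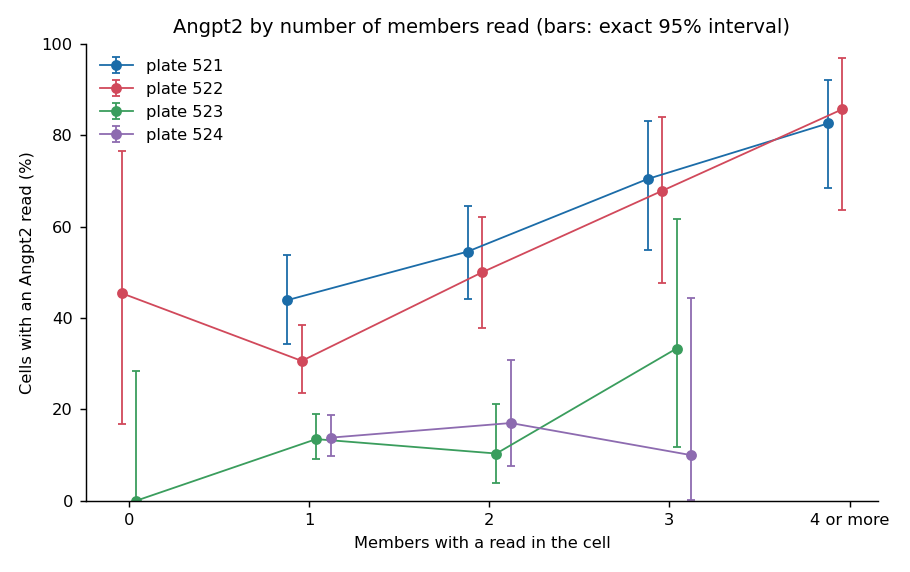
Percent of cells with an Angpt2 read (vertical axis) by the number of members read in the cell (horizontal axis) for each plate, with exact 95% intervals; points with under 10 cells are left out. Plates 521 and 522 climb to 82.6% and 85.7% with 4 or more members, while plates 523 and 524 stay at or below 33.3%.

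The 68 cells with 4 or more members were set beside the 748 cells with 0 or 1, within plates 521 (46 against 111 cells) and 522 (21 against 171 cells), which alone had at least 10 cells with 4 or more. A gene counted as higher or lower when it was so by 2-fold on both plates; 1.87% of all genes tested were higher and 5.1% lower. Of 25 other genes known from sprouting vessels, 22 were above the filter, and 9 of these were higher and 1 lower. The highest mean ratios were those of the laminin chain Lamb1 (log2 3.72; 81.4 against 16.5 CPM on plate 521 and 66.4 against 0.836 CPM on plate 522) and of Apln (3.45; 1128 against 141.9 CPM and 1235 against 80.5 CPM). The other 7 were named after their values had been seen. They were Nid1 (2.43), the vasodilator peptide Adm (1.68), Lamc1 (1.503), Nid2 (1.37), Dll4 (1.27), Col4a2 (1.15) and Col4a1 (1.09). Of the 9, 6 encode chains or linkers of the basement membrane. The list had been made with these 6 and the laminin chain Lama4 on it, so their number partly reflects its make-up. Lama4 (0.60), Kdr (0.69) and Pdgfb (-0.17) were not past 2-fold on both plates. Plvap, a protein of vessel fenestrae that sprouting brain vessels can show, was lower (-3.22), and the netrin receptor Unc5b was at -1.13 but not 2-fold lower on plate 521.

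Genes of the Notch response and of stalk cells were mostly level: of 9 above the filter, the feedback inhibitor Nrarp was higher (3.37; 70.3 against 3.27 CPM and 79.6 against 11.5 CPM) and the Notch target Hey1 was lower (-1.47). Hes1 was at 0.62, and Hey2 had 0 reads in the 68 cells and was read in only 0.668% of cells with 0 or 1 members. Of the binding partners and relatives of the members, 14 were above the filter. Kcnq1, the potassium channel that Kcne3 can join, was higher (2.40; 62.0 against 14.9 CPM and 170.9 against 23.6 CPM), although Kcne3 itself was read in 1 of these cells. Chst2, a sulfotransferase of the family of Chst1, was higher too (2.33; 46.9 against 12.7 CPM and 108.4 against 14.2 CPM). Lrp1, a receptor that clears the urokinase receptor with its ligand, had 0 reads in the 68 cells. In cells with 0 or 1 members it stood at 8.37 CPM on plate 521 and 2.32 CPM on plate 522. Over all plates only 2.67% of those cells had an Lrp1 read, so 0 among 68 cells says little. For the chemokine receptor pair of Cxcr4, Cxcl12 was at -0.91 and the decoy receptor Ackr3 at 0.32, neither past 2-fold on both plates. Tek, the receptor of Angpt2, was at -0.52.

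Levels of arterial markers were low in the cells with 4 or more members. The share of cells with a read, over all plates, differed little for some of them. It was 25.0% against 23.5% for Hey1, 17.6% against 19.8% for Gkn3 and 4.41% against 4.81% for Fbln5. For others it differed more, with 2.94% against 26.1% for Alpl and 4.41% against 10.8% for Gja4. Of 15 arterial genes, 13 were lower on both plates and 0 higher, and their sum was 1156 against 2251 CPM on plate 521 and 896.4 against 1996 CPM on plate 522. The connexin Gja4 was at 0.998 against 123.7 CPM and 0.647 against 72.3 CPM (log2 -5.72), and the phosphatase Alpl at 1.17 against 165.7 CPM and 6.21 against 213.0 CPM (-5.58). The exceptions were Tm4sf1 (-0.32) and Efnb2 (-0.35). The arterial list shares Efnb2 with the sprouting list and Hey1 with the Notch list. Venous markers had 2 of 7 lower, Nr2f2 (-1.29) and Slc38a5 (-1.22), and 0 higher, and capillary and general endothelial markers had 0 of 10 and 0 of 8 in either direction. Rgcc (1.10) was the highest of the capillary markers and Cxcl12 the lowest, and the endothelial markers ran from Tek (-0.52) to Pecam1 (0.35). The median over all genes tested was -0.12.

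Lists of other cell types differed in direction in these cells. Pericyte markers summed to 26.1 against 8.19 CPM on plate 521 and 47.1 against 30.9 CPM on plate 522, microglia and leukocyte markers to 36.4 against 28.8 CPM and 17.9 against 10.4 CPM, and smooth muscle markers to 17.96 against 1.32 CPM and 4.66 against 3.87 CPM. On plate 521 most of the pericyte sum was Cspg4 (19.4 against 6.34 CPM) and Rgs5 (5.22 against 0.150 CPM), and most of the smooth muscle sum was Myl9 (14.1 against 0.0250 CPM) and Tagln (3.52 against 0.774 CPM). On plate 522 the pericyte marker Vtn was at 16.2 against 2.06 CPM, while on plate 521 it was at 0.0587 against 0.175 CPM. Pdgfrb had 0 reads in the 68 cells and 0.125 CPM in the comparison cells of plate 521, and Acta2 had 0 reads against 0.0499 CPM there. The comparison levels of these 2 genes were themselves near 0, so their 0 reads say little. These genes were named after their values had been seen, and their part in the results was not tested. Erythroid markers summed to 0.176 against 23.6 CPM and to 167.8 against 0.972 CPM, the latter from Alas2. Few genes of these lists were above the filter: 3 of pericytes, 1 of smooth muscle, 2 of fibroblasts and 1 of microglia and leukocytes. Astrocytes had 3, oligodendrocytes 0, neurons 1 and erythroid cells 1. None was 2-fold higher or lower on both plates, which says little with so few genes. Without the cells that held markers of another type, 3 of them among the 68, again 9 sprouting genes were higher and 13 arterial genes lower.

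**Figure D5:**
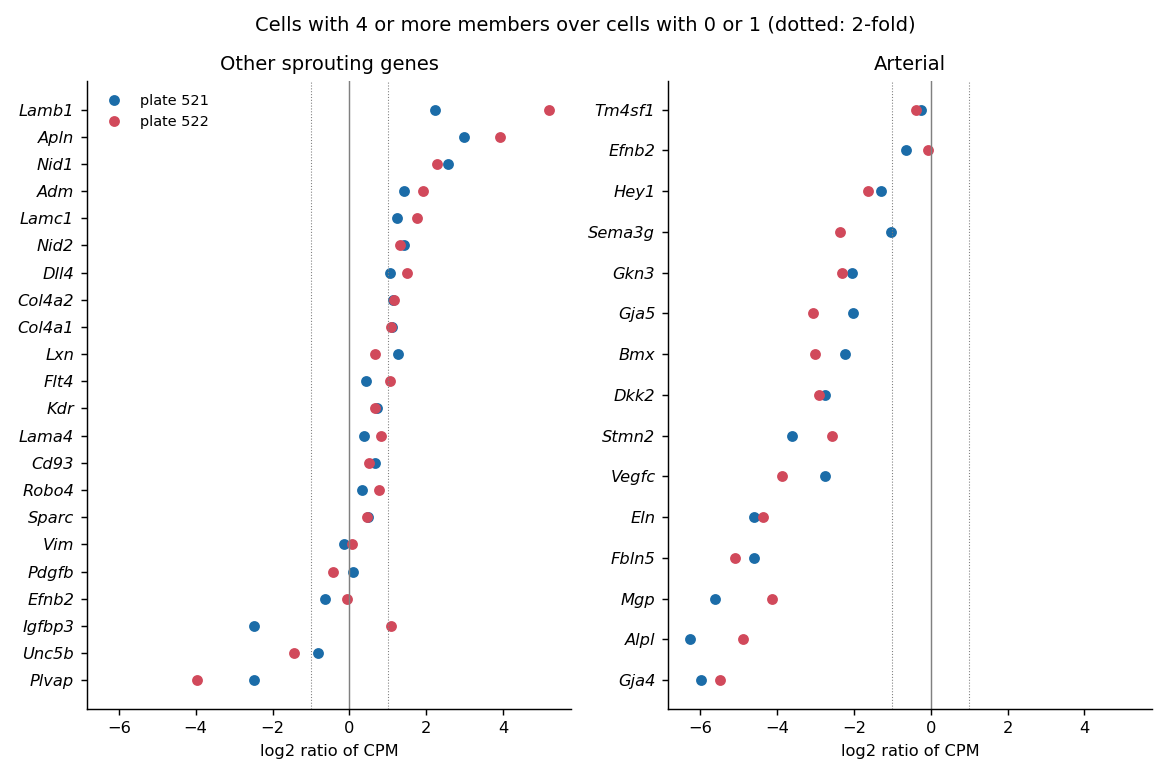
Log2 ratio of CPM in cells with 4 or more members over cells with 0 or 1 (horizontal axis) on plates 521 and 522 for the other sprouting genes and the arterial markers at 5 CPM or more, ordered by the mean of both plates. Lamb1, Apln and Nid1 lead the sprouting genes, and 13 of 15 arterial markers lie below the dotted line at -1 on both plates.

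Cells that held a given member were also set beside the other cells of their plate by summed arterial markers, since the members behaved differently on plates 523 and 524. Meox1 cells were lower on all 4 plates: 1333 against 2047 CPM, 889.4 against 1866, 906.6 against 1646 and 875.6 against 1534. Plaur cells were lower on all 4 as well: 1636 against 1909 CPM, 1084 against 1800, 1240 against 1636 and 1335 against 1541. The same held for Angpt2-read cells. Fscn1 cells were lower on plates 521 (1262 against 2128 CPM) and 522 (971.9 against 1891 CPM), and were too few to read on the others. Trp53i11 cells were lower on plates 521 (1586 against 2065 CPM) and 522 (1179 against 1880 CPM) and higher on plates 523 (3207 against 1525 CPM, 11 cells) and 524 (3659 against 1464 CPM, 8 cells). Mcam cells had about the level of the others on plates 521 (1880 against 1878 CPM) and 522 (1596 against 1736 CPM) and more on plates 523 (2638 against 1551 CPM, 10 cells) and 524 (2424 against 1493 CPM, 9 cells). The sums for plates 523 and 524 rest on few cells of each gene.

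Venous and capillary sums gave less separation. Fscn1 cells had 2963 against 2700 CPM of venous markers on plate 521 and 2487 against 2136 CPM on plate 522, and Meox1 cells 2201 against 2954 CPM and 1822 against 2258 CPM. Of capillary markers, Meox1 cells had 6977 against 5072 CPM, 7690 against 6582, 12254 against 9543 and 11279 against 9152 CPM on plates 521 to 524, higher on all 4. Capillary sums were also higher on all 4 plates in Cxcr4 cells and in Angpt2-read cells. Markers of other types stood higher in Fscn1 cells for 2 lists: the microglia and leukocyte list summed to 103.1 against 26.1 CPM and the fibroblast list to 87.8 against 18.2 CPM, with any marker read in 28.9% against 20.9% and 11.9% against 9.13% of cells. Their part in the level of Fscn1 was not tested; the log2 ratio of Fscn1 between Angpt2-read and Angpt2-free cells was 2.98 without the cells that held markers of another type and 3.06 with them.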

How the data were processed

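Single endothelial cells of brain were measured by Smart-seq2. The authors deposited whole-number counts per gene and cell. The submitters' processing notes name build GRCm38, featureCounts, Subread 1.4.6-p5, SAMtools 0.1.18 and TopHat2 2.1.1; no source read here states whether counting used strand. All 1187 columns were used; none was identical to another, and none could be given a sample label, so the planned comparison of genotypes was not made and values are given by plate. With no samples to compare, no test was run.

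Counts were summed over cells and scaled to CPM over all gene rows. For shares of cells, each cell was thinned once to 100000 reads without replacement, and none was shallower. Log2 ratios had 1 CPM added to both sides, genes at 5 CPM or more over all cells counted as tested, and 2-fold as called. Pairs of genes were compared with the product of their shares within plates where that came to 5 cells or more. Of the 46517 rows, 41955 matched 1 GENCODE M21 gene by symbol, which gave exon lengths. No doublet caller was run. The scripts were checked on simulated data and ran under Python 3.11.15 with numpy 2.4.6, scipy 1.17.1, pandas 2.3.3 and matplotlib 3.10.9.

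The members, the gene lists and the rules were chosen with earlier results of these data known. The genes named are the members and Angpt2, the 2 highest and 2 lowest of each list, partners of members, the 3 genes most like each member, and the 10 non-members at 20 CPM or more with the highest Angpt2 ratio. Alternatives were other depths, a minimum of 3 reads, another seed, other totals and priors, no filter, and cells or plates left out.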

Additional observations from a re-analysis of the deposited data

How the results depend on the processing

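Of the 7 members above the filter, 5 were at least 2-fold higher in Angpt2-read cells, and the count was 3 to 5 with each plate left out in turn, lowest without plate 521. With the log2 ratios averaged over plates it was 1, and the median over the members was 0.43 in place of 2.22; with plates left out in turn that median was 1.20 to 2.56. The same averaging, chosen after seeing the data, turned the sign for Trp53i11 (-0.31) and Mcam (-0.13). The count of members 2-fold apart between plates was 3 to 5 with plates left out in turn. Pairs of members at 1.5 or more numbered 5 to 12 with plates left out, beside 13 with all, lowest without plate 521, and 10 to 14 under the other alternatives. The co-occurrence of Esm1 with Angpt2 was 2.44 where at least 3 reads were asked for, from 5 Esm1 cells, and 1.31 to 1.86 with plates left out. The share with Angpt2 among cells with 4 or more members was 74.2% to 87.5% over its alternatives, the sprouting count 8 to 11 and the arterial count 12 or 13; these 2 counts were recomputed under settings chosen after seeing the data. Ratios of Fscn1 (2.00 to 3.40) and Cxcr4 (1.01 to 1.83) stayed above 2-fold in all 15 settings run. Where a value changed, the cause was not tested. At least 3 reads were found in 5 cells for Esm1, 3 for Kcne3 and 26 for Cxcr4, which limits what can be said of these members. No paired analysis was possible because the columns carry no replicate or sample number.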

Other observations

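Outside the members, the 10 genes with the highest pooled ratio between Angpt2-read and Angpt2-free cells, among genes at 20 CPM or more, were Apln (log2 3.52), Frzb (2.93), Slc22a14 (2.54), Prnd (2.41), Fgfbp1 (2.27), Ica1l (2.15), Adm (2.14), Gpr85 (2.03), Ctgf (1.99) and Cyp4b1 (1.97). Apln and Adm encode secreted peptides that act on vessels, Frzb a secreted Wnt antagonist and Ctgf a matricellular protein. As with the members, the ratios were not equal over plates. Apln had 2.32 and 2.56 on plates 521 and 522, -0.02 on plate 523 and -2.41 on plate 524. The last 2 values rest on 0 Apln reads in the 38 and 43 Angpt2-read cells of these plates. The other cells there had 0.0112 and 4.33 CPM. Prnd had 1.499, 1.25, -0.88 and -2.90 on plates 521 to 524. Gpr85 had the highest mean over the 4 plates, at 1.48, with 2.26, 2.29, 1.74 and -0.37. Ctgf was above 0 on all 4 plates, at 1.12, 1.08, 0.39 and 0.67.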
